A study of Mus musculus with 48 samples.

Results

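The genes described are the nuclear genes of the aminoacyl-tRNA synthetases, taken as the protein-coding lines of the count table whose symbol is a synthetase name, with the suffix 2 marking the mitochondrial enzymes. Of 37 names in this rule 36 were found, 20 cytosolic and 16 mitochondrial, among 47729 genes in the table (22048 of them protein-coding). All 36 passed the filter on low counts in each depot. Each was covered by 31 reads (Pars2) to 7950 reads (Eprs) in every library. Gars and Kars are counted in the cytosolic set, although each of these single genes encodes both the cytosolic and the mitochondrial enzyme. Hars and Hars2 lie head to head and overlap on opposite strands, and since the strand used in counting is not stated their reads cannot be told apart where they overlap.

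An aminoacyl-tRNA synthetase joins an amino acid to its tRNA, the step that sets which amino acid each codon is read as. Cytosolic enzymes serve the translation of nuclear messages, and a second group of nuclear genes encodes the enzymes that are imported to charge tRNA for the few proteins translated inside mitochondria. Several cytosolic synthetase genes are known targets of ATF4, the transcription factor of the amino acid response, and brown fat is known for its abundant mitochondria. Cars and Cars2 encode the enzymes that charge tRNA with cysteine, the amino acid whose supply the study lowered.

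Poly(A) RNA was sequenced from snap-frozen fat of male mice, in 48 libraries. The mice lacked Cth (Cth-/-), the gene of the enzyme that forms cysteine from cystathionine, or carried it (Cth+/+). They ate a cystine-free diet (CysF) or a control diet (CTRL) for 6 days. Visceral white fat (EFAT), subcutaneous white fat (SFAT) and brown fat (BAT) were taken, each in 4 groups: Cth-/- CysF, Cth-/- CTRL, Cth+/+ CysF and Cth+/+ CTRL. Each of the 12 groups holds 4 libraries. The deletion is in the whole animal as far as the labels say, and the strain and age are not given in them. The labels number the libraries without saying that a number is a separate animal, so the tests reflect only the spread between these samples, which may be technical.

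Libraries held totals of 18.7 to 36.1 M (mega) reads in EFAT; those of SFAT held 16.2 to 39.0 M reads, and those of BAT 22.1 to 46.0 M reads. Cth itself had 0 to 6 reads in the 24 Cth-/- libraries and 8 to 389 reads in the 24 Cth+/+ libraries. Summed markers of brown adipocytes were 11.1 to 222 CPM in EFAT, 33.3 to 1410 CPM in SFAT and 3770 to 12000 CPM in BAT, where CPM (counts per mega) are reads relative to the library total, TMM-scaled over all libraries. Fold changes within a depot were instead scaled over the libraries of that depot, so they can differ from the ratio of the printed CPM. Whether groups overlap is read from the CPM throughout. Reads of the pseudogene Gm43512 divided the libraries into set A (27 libraries, under 0.1 CPM) and set B (21 libraries), with 2.34 reads in the highest set A library and 2.70 reads in the lowest set B library. In EFAT 3 of 4 Cth-/- CysF libraries but 1 of 4 Cth-/- CTRL libraries were of set B. Some libraries stood apart and were left out in an alternative chosen after the data were seen. They were EFAT replicates 2, 11 and 14, SFAT replicates 14 and 20, and BAT replicates 10 and 12. In the bulk tissue used here, fewer cells of a type and less RNA per cell cannot be told apart.

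Promoter sequence divided the cytosolic set. RefSeq promoters (GRCm38.p6, 250 bases before to 50 bases after the annotated start) were matched for 27 of the 36 genes, 13 cytosolic and 14 mitochondrial, with Mars found under its RefSeq symbol Mars1. Not in that table were Cars, Hars, Lars, Nars, Rars, Vars, Wars, Hars2 and Pars2. The motif TGATGNAA, the core of the C/EBP-ATF response element through which ATF4 acts, was searched on both strands. It was present in 5 of the 13 cytosolic promoters and in 0 of the 14 mitochondrial ones, against 1304 of 32851 promoters in the table (3.97%). A window is printed for each, the match nearest to the start. In the results these 5 genes are compared with the other cytosolic genes that have a promoter in the table. Each window runs 5′ to 3′ along the gene's strand, with the motif in capitals. The motif reads as its reverse complement where it lies on the opposite strand, which is the case in each window but that of Yars.
Aars: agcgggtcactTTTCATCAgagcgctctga
Gars: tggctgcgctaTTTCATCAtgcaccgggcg
Iars: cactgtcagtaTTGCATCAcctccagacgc
Tars: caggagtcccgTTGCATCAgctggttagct
Yars: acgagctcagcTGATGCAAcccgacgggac
In GRCm38 the Aars window is chr8:111033840-111033869 on the plus strand, with the motif at base 10 counted from the start. The Gars window is chr6:55037960-55037989 on the plus strand, 30 bases before the start, and the Iars window is chr13:49682126-49682155 on the plus strand, at base 8. The Tars window is chr15:11399655-11399684 on the minus strand, 15 bases before the start. The Yars window is chr4:129189895-129189924 on the plus strand, at base 4. A match is a run of letters and was not tested for binding.

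Levels before any intervention differed between the sets and between the depots. Divided by the exon length of each gene, the cytosolic set of Cth+/+ CTRL mice had a median of 9.12 CPM per kb in EFAT (range 2.76 to 21.8), 8.77 in SFAT (2.74 to 22.8) and 15.4 in BAT (4.29 to 59.1). The mitochondrial set had a median of 1.82 CPM per kb in EFAT (0.778 to 10.2), 1.93 in SFAT (0.783 to 10.8) and 5.00 in BAT (1.58 to 23.6). Gars, for glycine, was the highest gene per length in each depot, at 21.8 ± 1.76 CPM per kb in EFAT, 22.8 ± 3.37 in SFAT and 59.1 ± 10.1 in BAT (SD, n = 4). It was followed in each depot by Nars, for asparagine, and Farsb, the beta subunit of the phenylalanine enzyme, at 31.1 ± 4.87 and 26.4 ± 1.44 CPM per kb in BAT, values that do not overlap with that of Gars by their SDs. The lowest cytosolic genes were Yars, Farsa and Cars in EFAT (4.42, 3.34 and 2.76 CPM per kb), Vars, Farsa and Cars in SFAT (4.02, 3.19 and 2.74), and Cars, Vars and Farsa in BAT (5.83 ± 1.29, 5.59 ± 0.883 and 4.29 ± 0.298), where Cars and Vars lie within each other's SD. Farsa and Farsb encode the subunits of 1 enzyme. These levels depend on the annotated length, taken over all exons of a gene merged (3119 bases for Gars and 18102 for Eprs). In CPM alone Eprs was above Gars in EFAT of Cth+/+ CTRL mice, at 157, 149, 137 and 135 against 73.0, 71.3, 66.2 and 60.9. In SFAT it was above Gars too, at 129, 129, 95.9 and 125 against 78.9, 79.3, 57.0 and 69.3. In BAT their values overlapped.

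In the mitochondrial set Iars2, for isoleucine, stood highest per length, at 10.2 ± 0.655 CPM per kb in EFAT, 10.8 ± 0.832 in SFAT and 23.6 ± 0.779 in BAT. Rars2, for arginine, came second at 5.96, 5.68 and 11.5 CPM per kb in EFAT, SFAT and BAT. Next was Hars2 in EFAT (3.30) and SFAT (4.09) and Fars2 in BAT (9.62). Mars2, for methionine, was lowest per length at 0.778 ± 0.138 in EFAT, 0.783 ± 0.159 in SFAT and 1.58 ± 0.158 in BAT. Pars2, for proline, stood close above it (1.08, 1.19 and 2.00), together with Wars2 in EFAT (1.07) and Ears2 in SFAT and BAT (1.01 and 1.88). Mars2 has 11294 merged exon bases and Pars2 3094, and in CPM alone Pars2 was below Mars2 in each depot.

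**Figure D1:**
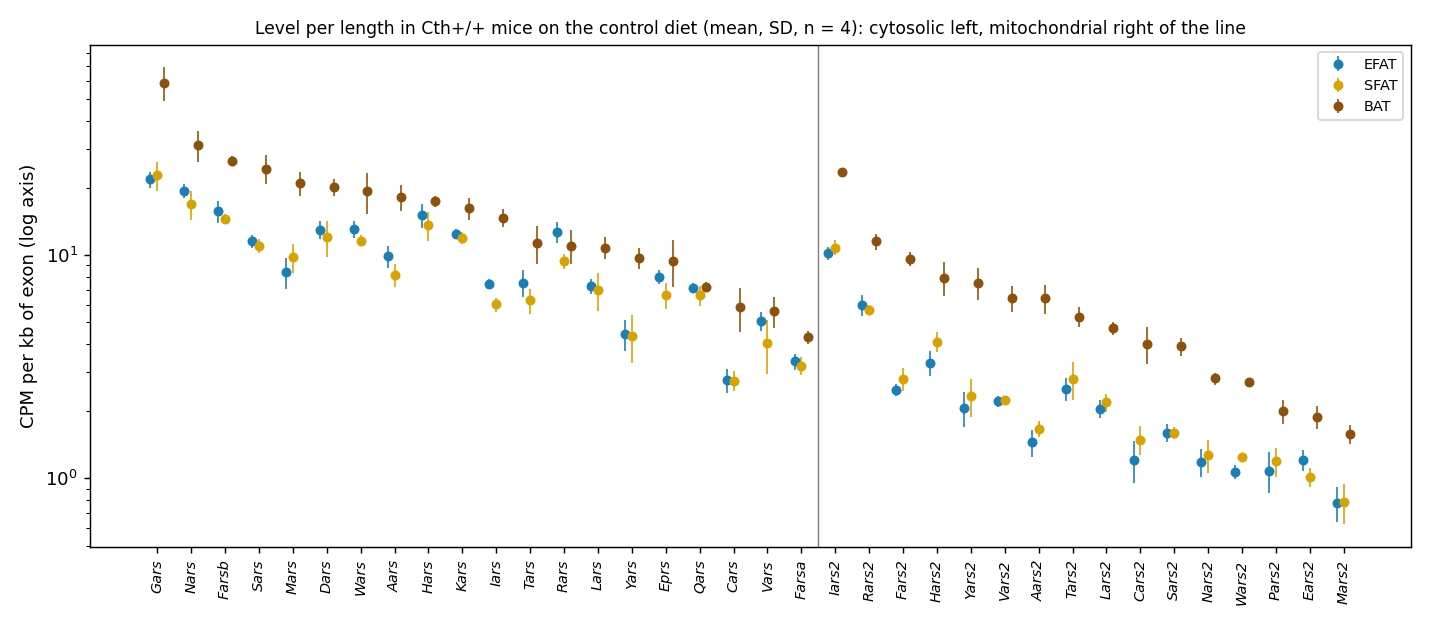
Level of each synthetase gene in Cth+/+ mice on the control diet, in CPM per kb of exon on a log axis, with points for the mean and bars for the SD of 4 libraries. Cytosolic genes stand left of the line and mitochondrial genes right of it, each ordered by the BAT level; the BAT points lie above the EFAT and SFAT points for all 16 mitochondrial genes.

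White depots had less of both sets than brown fat, tested over all genes in a fit of the 48 libraries. In EFAT against BAT 15 of 20 cytosolic and 16 of 16 mitochondrial members were lower and 0 higher, with median log2 differences of -0.64 and -1.29 (all genes 0.09; 60.0% of all tested genes called, 26.9% lower). In SFAT against BAT 18 of 20 cytosolic and 16 of 16 mitochondrial members were lower, with medians of -0.82 and -1.14 (all genes 0.04; 53.0% called, 25.9% lower). The largest differences were those of Aars2, for alanine (-2.18 ± 0.16 in EFAT and -1.95 ± 0.16 in SFAT against BAT), Fars2 (-1.98 and -1.81) and Yars2, for tyrosine (-1.90 and -1.71), followed by Cars2 in EFAT (-1.76) and Vars2 in SFAT (-1.53). In the cytosolic set Gars differed most (-1.48 and -1.40), followed by Mars, Yars and Sars in EFAT (-1.36, -1.17 and -1.12) and Iars, Yars and Aars in SFAT (-1.31, -1.19 and -1.18). Between EFAT and SFAT 1 member was called, where 15.2% of all tested genes were (9.57% higher). This was Rars, for arginine, at 0.43 ± 0.12 (edgeR adjusted p = 0.010), and the call was not kept without replicate 1 or 4 (adjusted p 0.060 to 0.069). Brown adipocyte markers differ between the depots in the same direction, and their part in these differences was not tested.

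Subcutaneous fat of Cth-/- mice had higher mitochondrial synthetase transcripts on the cystine-free diet, while cytosolic ones did not pass the test. Iars2 (ENSMUSG00000026618, chr1:185284726-185329396, minus strand) had 136, 137, 133 and 142 CPM in Cth-/- CysF libraries, against 95.0, 88.3, 101 and 94.8 CPM in Cth-/- CTRL libraries. The groups were far apart and did not overlap, with a log2 fold change of 0.57 ± 0.09 (edgeR adjusted p = 0.00044). Fars2, for phenylalanine, had 23.6, 22.6, 19.7 and 18.9 CPM in Cth-/- CysF libraries, against 14.8, 15.4, 16.2 and 15.5 CPM in Cth-/- CTRL libraries. All 4 cystine-free libraries were above all 4 control libraries (0.49 ± 0.11, adjusted p = 0.0050). Nars2, for asparagine, had 11.8, 11.5, 10.1 and 9.49 CPM in Cth-/- CysF libraries, against 7.11, 7.82, 8.95 and 6.82 CPM in Cth-/- CTRL libraries. These groups did not overlap either (0.51 ± 0.14, adjusted p = 0.013). Mars2 averaged 12.4 ± 1.16 CPM in Cth-/- CysF and 9.18 ± 0.754 CPM in Cth-/- CTRL libraries, without overlap (0.47 ± 0.15, adjusted p = 0.030). Vars2, for valine, had 17.4, 16.1, 14.2 and 13.5 CPM in Cth-/- CysF against 12.5, 12.9, 13.8 and 12.8 CPM in Cth-/- CTRL libraries, and the lowest cystine-free library overlapped with the highest control library (0.26 ± 0.09, adjusted p = 0.035).

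In all, 5 of 16 mitochondrial members rose and 0 fell in SFAT of Cth-/- mice, with a median log2 fold change of 0.25 and 15 of 16 values above 0 (all genes 0.03; 25.4% of all tested genes called, 11.8% higher). Of the cytosolic set 0 of 20 passed edgeR's test, 2 had an unadjusted p under 0.05 (6206 of 16555 tested genes), and DESeq2 called 1, higher. The cytosolic median was 0.05, with values from -0.16 to 0.29. The calls of Iars2, Fars2 and Nars2 were kept when any single replicate was left out, when the library set was a term, and without the libraries that stood apart (0.56, 0.54 and 0.63). Mars2 and Vars2 were not called without replicate 12, 13, 15, 16 or 17 (adjusted p 0.065 to 0.12). Within set A, with 3 Cth-/- CysF and 2 Cth-/- CTRL libraries, 4 of the 5 mitochondrial calls were kept and 5 of 20 cytosolic members also passed, each higher (Dars, Eprs, Mars, Qars and Sars, 0.25 to 0.40). Within set B replicate 20 was the only Cth-/- CysF library of SFAT. The medians there were lower, at 0.05 in the mitochondrial and -0.15 in the cytosolic set. Brown adipocyte markers summed to 269 to 1410 CPM in Cth-/- CysF and 120 to 273 CPM in Cth-/- CTRL libraries of SFAT, fibroblast markers to 1030 to 1350 CPM in Cth-/- CysF and 2390 to 5310 CPM in Cth-/- CTRL, and macrophage markers to 463 to 786 CPM in Cth-/- CysF and 777 to 2380 CPM in Cth-/- CTRL libraries. Their part in the change of the mitochondrial set was not tested.

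**Figure D2:**
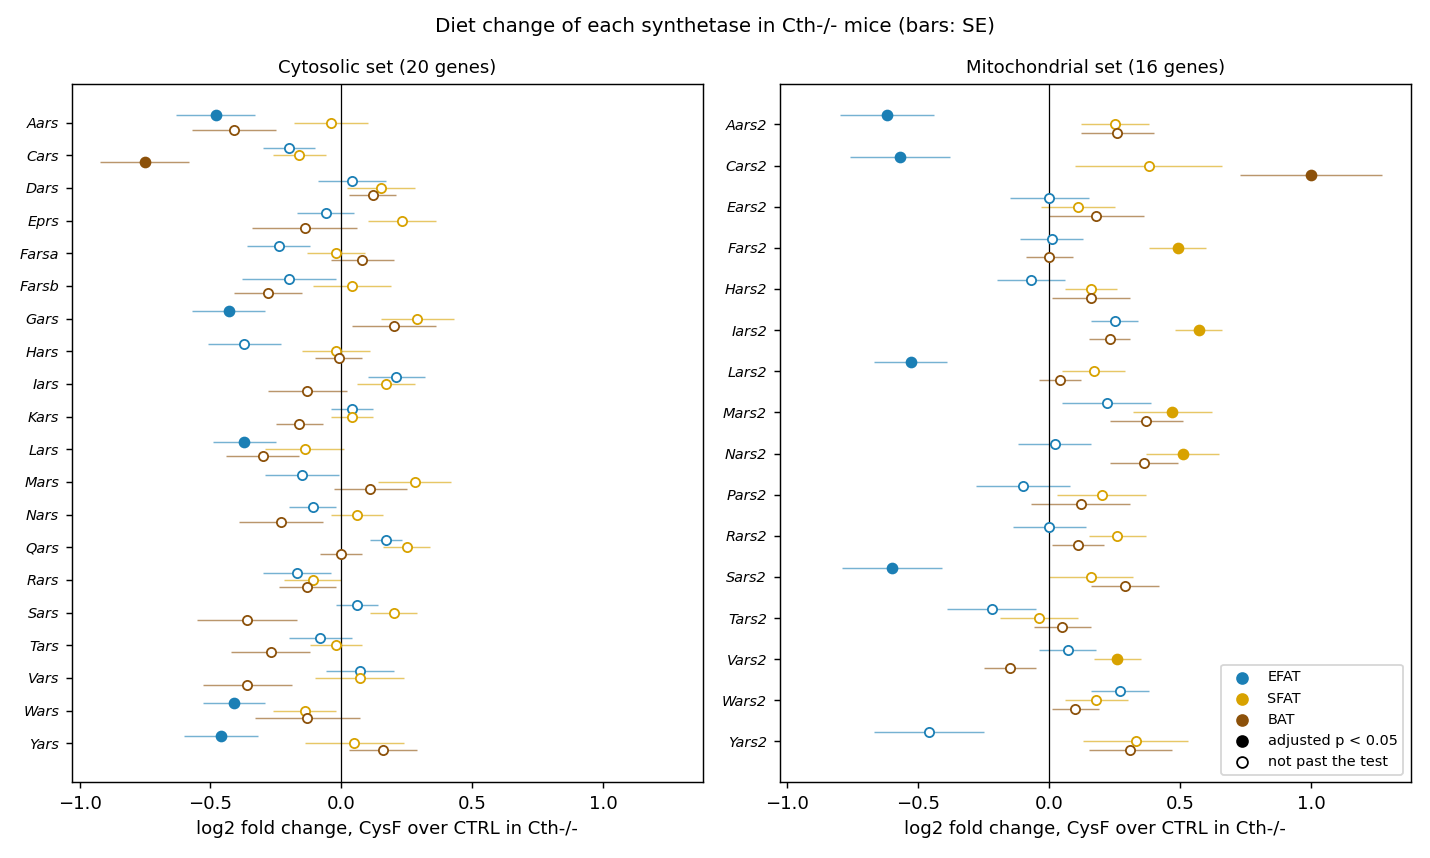
Log2 fold change, CysF over CTRL, of each synthetase gene in Cth-/- mice, by depot, with bars for the SE of the fit; filled points passed an adjusted p of 0.05. Filled points of the mitochondrial set stand right of 0 in SFAT (5 genes) and BAT (Cars2) and left of 0 in EFAT (4 genes), and filled points of the cytosolic set stand left of 0 in EFAT (5 genes) and BAT (Cars).

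In brown fat of Cth-/- mice the genes that passed edgeR's test were those for cysteine, and they went opposite ways. DESeq2 called both and also Iars2 (0.24), Mars2 (0.38) and Nars2 (0.36), each higher (adjusted p 0.0089 to 0.044). Cars (ENSMUSG00000010755, chr7:143557230-143600090, minus strand) had 14.9, 13.0, 13.2 and 12.4 CPM in Cth-/- CysF libraries, against 23.7, 18.9, 29.9 and 18.1 CPM in Cth-/- CTRL libraries. The groups did not overlap, and Cars fell with a log2 fold change of -0.75 ± 0.17 (edgeR adjusted p = 0.0071). Cars2 (ENSMUSG00000056228, chr8:11513977-11550783, minus strand) had 95.0, 52.6, 39.4 and 27.4 CPM in Cth-/- CysF libraries, against 20.0, 30.4, 25.4 and 31.8 CPM in Cth-/- CTRL libraries. Its log2 fold change was 1.00 ± 0.27 (adjusted p = 0.020), with means of 53.6 ± 29.5 CPM in Cth-/- CysF and 26.9 ± 5.36 CPM in Cth-/- CTRL libraries (SD, n = 4) and with replicate 20 of the cystine-free group inside the range of the control group. The fall of Cars was called in 15 of 16 alternatives, including the fit without the libraries that stood apart (-0.72, adjusted p = 0.021), and was -0.38 (adjusted p = 0.031) within set A. The rise of Cars2 was called in 9 of 16. It was not called without replicate 12, 14 or 16 (log2 fold change down to 0.59, adjusted p 0.052 to 0.070), nor without the libraries that stood apart (0.89, adjusted p = 0.053). Without control replicate 13 or 15, 5 members were called in BAT.

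These were 1 of 20 cytosolic members lower and 1 of 16 mitochondrial members higher, where 18.0% of all tested genes were called in BAT (7.81% higher, 10.2% lower). The cytosolic median was -0.13, with 15 of 20 values below 0, and the mitochondrial median 0.17, with 15 of 16 above 0 (all genes -0.01). For each of the 13 amino acids with 1 gene for each compartment the mitochondrial gene had the higher log2 fold change in BAT. In SFAT this held for 11 of 13 and in EFAT for 6 of 13. Within set A, which holds 3 Cth-/- CysF and 2 Cth-/- CTRL libraries of BAT, it held for 8 of 13, and the medians were 0.17 in the cytosolic and 0.18 in the mitochondrial set. The sets were thus not apart in BAT within set A. Within set B, where replicate 20 was the only Cth-/- CysF library, the mitochondrial gene was the higher for 13 of 13. The medians there were -0.34 in the cytosolic and 0.12 in the mitochondrial set. With the library set as a term it was also the higher for 13 of 13, with medians of -0.08 and 0.15. Brown adipocyte markers in BAT summed to 8330 to 12000 CPM in Cth-/- CysF and 3770 to 6500 CPM in Cth-/- CTRL libraries, fibroblast markers to 182 to 221 CPM in Cth-/- CysF and 370 to 470 CPM in Cth-/- CTRL, and skeletal muscle markers to 3.55 to 153 CPM in Cth-/- CysF and 98.1 to 1050 CPM in Cth-/- CTRL libraries. Mitochondrially encoded reads took 25.5 to 37.5% of Cth-/- CysF and 24.7 to 45.7% of Cth-/- CTRL libraries. The part of these in the BAT values was not tested.

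**Figure D3:**
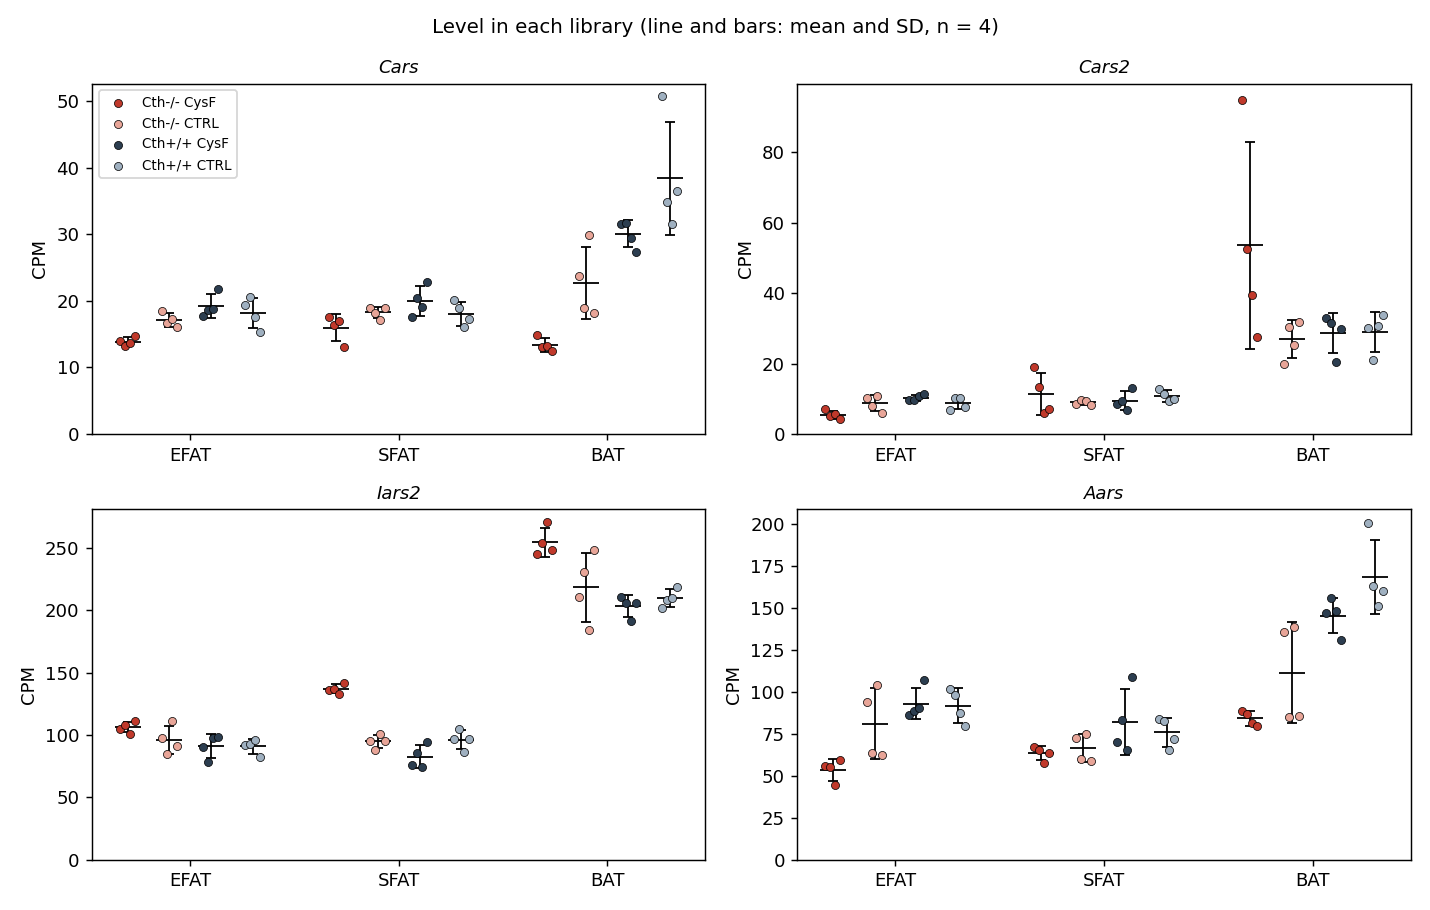
CPM of Cars, Cars2, Iars2 and Aars in each of the 48 libraries, by depot and group, with the line and bars for the mean and SD of 4 libraries. In BAT the Cars points of Cth-/- CysF mice lie below those of every other group, the Cars2 points of the same mice spread from 27.4 to 95.0 CPM, and in SFAT the Iars2 points of Cth-/- CysF mice lie above those of every other group.

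In visceral fat of Cth-/- mice 5 of 20 cytosolic and 4 of 16 mitochondrial members were lower on the cystine-free diet, and none of these calls was kept with the library set as a term. Aars (ENSMUSG00000031960, chr8:111033144-111057664, plus strand), for alanine, had 56.1, 55.1, 44.3 and 59.2 CPM in Cth-/- CysF libraries, against 93.7, 63.4, 104 and 62.5 CPM in Cth-/- CTRL libraries. The groups did not overlap (-0.48 ± 0.15, edgeR adjusted p = 0.030), but control replicates 12 and 14 were much higher than 13 and 15. Yars (ENSMUSG00000028811, chr4:129189760-129219607, plus strand), for tyrosine, had 21.0, 17.4, 18.8 and 16.4 CPM in Cth-/- CysF libraries, against 30.9, 23.2, 33.6 and 21.6 CPM in Cth-/- CTRL libraries. Its groups did not overlap (-0.46 ± 0.14, adjusted p = 0.023), with the same control replicates high. Gars (ENSMUSG00000029777, chr6:55038007-55079500, plus strand) had 54.4, 45.0, 49.2 and 43.3 CPM in Cth-/- CysF libraries, against 78.4, 55.9, 89.2 and 55.6 CPM in Cth-/- CTRL libraries, again without overlap (-0.43 ± 0.14, adjusted p = 0.029). The gaps between groups in EFAT were small, as 54.4 against 55.6 CPM for Gars, and overlap under the scaling of the test was not examined. Wars, for tryptophan, and Lars, for leucine, also passed at -0.41 ± 0.12 and -0.37 ± 0.12 (adjusted p = 0.018 and 0.029), and their groups overlapped.

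Of the mitochondrial genes in EFAT, Aars2 had 4.63, 3.75, 4.12 and 3.43 CPM in Cth-/- CysF libraries, against 7.62, 5.61, 8.41 and 4.75 CPM in Cth-/- CTRL libraries. It fell with a log2 fold change of -0.62 ± 0.18 (adjusted p = 0.017) without overlap. Lars2 had 17.8, 12.7, 13.5 and 12.4 CPM in Cth-/- CysF libraries, against 24.1, 19.3, 26.2 and 17.7 CPM in Cth-/- CTRL libraries. Its highest cystine-free library just exceeded its lowest control library (-0.53 ± 0.14, adjusted p = 0.013). Sars2, for serine, and Cars2 passed at -0.60 ± 0.19 and -0.57 ± 0.19 (adjusted p = 0.031 and 0.036) with overlapping groups.

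No member passed on the higher side, and 28.8% of all tested genes were called (14.5% higher, 14.3% lower). The median log2 fold change was -0.16 in the cytosolic and -0.04 in the mitochondrial set, where 6 of 16 values were above 0 (all genes 0.07). With the library set as a term none of the 9 calls was kept and 1 other member was called, higher. Aars was then -0.42 (adjusted p = 0.11) and Yars -0.36 (adjusted p = 0.10). Without the libraries that stood apart only Lars2 of the 9 was called (-0.46, adjusted p = 0.043). Leaving out replicate 12, 14, 17 or 20 left 1, 2, 2 or 3 members called, and the calls lost had adjusted p of 0.051 to 0.12. Lars2 alone of the 9 was called without each single replicate. Epididymal epithelium markers summed to 60.6 to 448 CPM in Cth-/- CysF and 6.06 to 117 CPM in Cth-/- CTRL libraries, and macrophage markers to 369 to 526 CPM in Cth-/- CysF and 728 to 816 CPM in Cth-/- CTRL libraries. Their part in the lower values was not tested.

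Cars did not pass in the white depots. It had 13.9, 13.2, 13.7 and 14.7 CPM in EFAT of Cth-/- CysF mice, against 18.5, 16.6, 17.3 and 16.0 CPM in Cth-/- CTRL mice. These groups did not overlap, but the log2 fold change was -0.20 ± 0.10 (edgeR adjusted p = 0.13). In SFAT it was -0.16 ± 0.10 (adjusted p = 0.26). Cars2 in SFAT had 19.0, 13.4, 6.07 and 7.19 CPM in Cth-/- CysF libraries, against 8.55, 9.59, 9.26 and 8.31 CPM in Cth-/- CTRL libraries. Replicates 16 and 17 stood above the control group and 18 and 20 below it (0.38 ± 0.28, adjusted p = 0.35), and in BAT the same numbered libraries 16 and 17 were also the highest.

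Of the genes that serve both compartments, in the fit over all libraries, Gars passed in EFAT alone and Kars in no depot. No difference between them was tested. Gars had log2 fold changes of 0.29 ± 0.14 in SFAT (adjusted p = 0.16) and 0.20 ± 0.16 in BAT (adjusted p = 0.41), beside its fall in EFAT. The call of Gars in EFAT was not kept with the library set as a term. In BAT Gars was called higher within set A (0.51, edgeR adjusted p = 0.037) and was -0.22 within set B. Kars (ENSMUSG00000031948, chr8:111993443-112011323, minus strand), for lysine, had log2 fold changes of 0.04 ± 0.08 in EFAT (adjusted p = 0.75) and 0.04 ± 0.08 in SFAT (adjusted p = 0.79). In BAT it had 63.8, 65.4, 63.7 and 61.9 CPM in Cth-/- CysF libraries, against 72.8, 67.6, 76.5 and 69.0 CPM in Cth-/- CTRL libraries, which did not overlap and did not pass (-0.16 ± 0.09, adjusted p = 0.22).

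In Cth+/+ mice the same diet gave 0 of 36 calls in each depot, where 0.0% of all tested genes were called in EFAT, 0.0664% in SFAT and 0.0826% in BAT. At an unadjusted edgeR p under 0.05 there were 0 of 36 members in EFAT, 7 in SFAT and 1 in BAT. Over all tested genes these were 678 of 17248 in EFAT, 2310 of 16555 in SFAT and 1424 of 14528 in BAT. DESeq2 called 0 members in each depot. Cytosolic and mitochondrial medians were 0.02 and 0.06 in EFAT, -0.01 and -0.22 in SFAT, and -0.09 and -0.02 in BAT. In SFAT 15 of the 16 mitochondrial values were below 0, the opposite side from Cth-/- mice. Iars2 had 76.1, 85.9, 74.0 and 94.2 CPM in Cth+/+ CysF libraries of SFAT, against 96.9, 105, 86.6 and 96.9 CPM in Cth+/+ CTRL libraries, and these groups overlapped.

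The difference of the diet response between the genotypes was called in SFAT for 7 of 16 mitochondrial members, each higher, and 0 of 20 cytosolic ones (21.7% of all tested genes called, 9.39% higher). It uses the same Cth-/- libraries as the diet comparison. The mitochondrial median was 0.44 with 16 of 16 values above 0, and the cytosolic median 0.00 (all genes 0.05). The called members were Iars2 (0.82 ± 0.13, edgeR adjusted p = 0.00064), Nars2 (0.81 ± 0.19, adjusted p = 0.0088), Pars2 (0.77 ± 0.24, adjusted p = 0.033) and Fars2 (0.74 ± 0.16, adjusted p = 0.0044), followed by Aars2, Vars2 and Hars2. Of the cytosolic set 1 had an unadjusted p under 0.05 (5750 of 16555 tested genes) and DESeq2 called 0. The call of Iars2 was kept in 23 of 23 alternatives and those of Nars2 and Fars2 in 22. Aars2 kept its call in 20 and without each single replicate. Vars2 was not called without replicate 4, 13 or 16 (adjusted p 0.050 to 0.057). Pars2 was not called without 10 of the 16 replicates in turn (1, 2, 4, 7, 10, 13, 14, 16, 17 or 18; adjusted p 0.052 to 0.072). Hars2 was called without replicate 3, 11 or 20 only, and at adjusted p 0.055 to 0.10 without any other. In the same difference 4 of 4 tested brown adipocyte markers were higher (median 2.34) and 5 of 6 fibroblast markers (median -2.67), 7 of 8 tested lines of macrophage markers (-2.03) and 4 of 6 B cell markers (-4.98) were lower. Their part in the values of the mitochondrial set was not tested.

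In EFAT 1 member was called for this difference, Yars at -0.75 ± 0.20 (edgeR adjusted p = 0.029; 10.4% of all tested genes called, 5.35% lower). It was not called without replicate 3, 4, 11, 12, 14, 17 or 20 (adjusted p 0.050 to 0.070), with the library set as a term (-0.51, adjusted p = 0.47) or without the libraries that stood apart (-0.68, adjusted p = 0.090). Without replicate 13, 15 or 16, 2, 6 or 7 members were called, and DESeq2 called 3 cytosolic members and 1 mitochondrial member, each lower. In BAT 0 members were called by edgeR and 0 by DESeq2 (6.42% of all tested genes called by edgeR). An unadjusted p under 0.05 was found for 6 members and for 3226 of 14528 tested genes. The BAT values of the cysteine genes were 0.99 ± 0.38 for Cars2 (adjusted p = 0.14) and -0.43 ± 0.24 for Cars (adjusted p = 0.31), so the diet response of neither was shown to differ between the genotypes.

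On the cystine-free diet the genotypes differed in all depots, and the sets separated most in BAT and SFAT. These comparisons share the Cth-/- CysF libraries with the diet comparison. In BAT 9 of 20 cytosolic members were lower and 0 higher, and 3 of 16 mitochondrial members higher and 0 lower (31.6% of all tested genes called, 14.5% higher and 17.1% lower). The medians were -0.34 in the cytosolic and 0.07 in the mitochondrial set (all genes -0.01). Cars had 13.4 ± 1.06 CPM in Cth-/- CysF libraries and 30.0 ± 2.03 CPM in Cth+/+ CysF libraries (SD, n = 4), a log2 fold change of -1.16 ± 0.17 (edgeR adjusted p = 0.00014). It was called in 15 of 16 alternatives, and -1.19 and -1.15 within set A and set B. Aars had 88.7, 87.0, 81.6 and 79.6 CPM in Cth-/- CysF libraries, against 147, 156, 148 and 131 CPM in Cth+/+ CysF libraries, far apart without overlap (-0.78 ± 0.16, adjusted p = 0.0020). Tars, for threonine (-0.61 ± 0.15), and Farsb (-0.59 ± 0.13) followed, and the other lower members were Nars, Iars, Lars, Yars and Hars. Hars was not called without 7 of the 8 replicates in turn, Lars without 6 and Yars without 5 (adjusted p 0.051 to 0.12), whereas the other 6 lower members were called without each single replicate. Iars2 had 245, 254, 271 and 248 CPM in Cth-/- CysF libraries, against 211, 206, 191 and 206 CPM in Cth+/+ CysF libraries, without overlap (0.33 ± 0.08, adjusted p = 0.0053). Cars2 (0.90 ± 0.27, adjusted p = 0.019) and Nars2 (0.37 ± 0.13, adjusted p = 0.039) passed with overlapping groups. Cars2 was not called without replicate 10 or 16 (down to 0.49, adjusted p 0.051 to 0.089), and Nars2 was not called without 8, 10, 11, 16, 17 or 18 (adjusted p 0.053 to 0.11). Brown adipocyte markers summed to 8330 to 12000 CPM in Cth-/- CysF and 5280 to 6480 CPM in Cth+/+ CysF libraries, and fibroblast markers to 182 to 221 CPM in Cth-/- CysF and 411 to 896 CPM in Cth+/+ CysF libraries. Of 4 endothelial markers 3 were higher (median 0.50). The part of these in the BAT values was not tested.

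In SFAT 8 of 16 mitochondrial members were higher and 0 lower in Cth-/- CysF than in Cth+/+ CysF mice, while 1 cytosolic member was higher and 3 were lower (37.5% of all tested genes called, 18.1% higher and 19.4% lower). The mitochondrial median was 0.36 and the cytosolic median -0.11 (all genes 0.01). Iars2 averaged 137 ± 3.71 CPM in Cth-/- CysF and 82.5 ± 9.35 CPM in Cth+/+ CysF libraries (0.77 ± 0.09, edgeR adjusted p = 1.6e-05). Fars2 (0.66 ± 0.11, adjusted p = 0.00029), Nars2 (0.58 ± 0.14, adjusted p = 0.0042) and Mars2 (0.53 ± 0.15, adjusted p = 0.011) also stood apart from Cth+/+ CysF without overlap. The cytosolic members called were Mars (0.41 ± 0.14, adjusted p = 0.027), Rars (-0.36 ± 0.11, adjusted p = 0.020), Tars (-0.31 ± 0.10, adjusted p = 0.024) and Cars (-0.29 ± 0.10, adjusted p = 0.032). Each of these 4 cytosolic calls was not kept without 4 or more of the 8 replicates in turn: 7, 10, 16, 17 or 18 for Mars, 8, 11, 16 or 17 for Rars and Tars, and 8, 11, 17 or 20 for Cars (adjusted p 0.052 to 0.098). Brown adipocyte markers summed to 269 to 1410 CPM in Cth-/- CysF and 33.3 to 82.5 CPM in Cth+/+ CysF libraries, with 4 of 4 tested markers higher (median 2.67). Fibroblast markers summed to 1030 to 1350 CPM in Cth-/- CysF and 2850 to 6410 CPM in Cth+/+ CysF libraries, with 5 of 6 lower, and macrophage markers to 463 to 786 CPM in Cth-/- CysF and 770 to 2340 CPM in Cth+/+ CysF libraries. Of 6 adipocyte markers 4 were higher (median 0.44). The part of these in the SFAT values was not tested.

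In EFAT 10 of 20 cytosolic members were lower, and 6 of 16 mitochondrial members lower and 1 higher, in Cth-/- CysF than in Cth+/+ CysF mice (39.7% of all tested genes called, 20.1% higher and 19.6% lower). The medians were -0.28 and -0.11 (all genes 0.07). The largest cytosolic differences were those of Yars (18.4 ± 2.00 in Cth-/- CysF and 32.2 ± 3.20 CPM in Cth+/+ CysF libraries; -0.71 ± 0.14, edgeR adjusted p = 0.0014) and Aars (53.7 ± 6.48 in Cth-/- CysF and 93.1 ± 9.32 CPM in Cth+/+ CysF libraries; -0.70 ± 0.15, adjusted p = 0.0031). Gars (-0.57 ± 0.14) and Hars (-0.54 ± 0.14) followed. In the mitochondrial set Sars2 (-0.84 ± 0.19, adjusted p = 0.0037), Cars2 (-0.82 ± 0.19, adjusted p = 0.0041), Yars2 (-0.70 ± 0.21, adjusted p = 0.017) and Aars2 (-0.67 ± 0.18, adjusted p = 0.0086) were lowest. Yars2 was not called without replicate 11 or 17 (adjusted p = 0.053). Iars2 was the member that was higher (0.32 ± 0.09, adjusted p = 0.016), and it was not called without replicate 7, 8, 16 or 18 (adjusted p 0.090 to 0.24) or under RLE scaling. With the library set as a term 5 members were called, among them Yars (-0.58, adjusted p = 0.026), Aars (-0.61, adjusted p = 0.041), Cars (-0.39, adjusted p = 0.035) and Sars2 (-0.84, adjusted p = 0.029). In EFAT 3 of 4 Cth-/- CysF libraries and 0 of 4 Cth+/+ CysF libraries were of set B, so the comparison could be fitted within set A alone. There 1 Cth-/- CysF library remained, assumed to vary like the other groups, and none of the 17 calls was kept.

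On the control diet genotype differences were called by edgeR, over all libraries, in BAT alone. There 4 of 20 cytosolic members were lower in Cth-/- than in Cth+/+ mice and 0 higher (2.1% of all tested genes called, 0.805% lower), with medians of -0.29 in the cytosolic and -0.09 in the mitochondrial set (all genes 0.01). Yars had 30.4, 34.0, 37.4 and 28.8 CPM in Cth-/- CTRL libraries, against 66.3, 51.5, 55.2 and 57.6 CPM in Cth+/+ CTRL libraries, well apart (-0.79 ± 0.13, edgeR adjusted p = 0.011). Cars had 23.7, 18.9, 29.9 and 18.1 CPM in Cth-/- CTRL libraries, against 50.7, 34.8, 31.5 and 36.5 CPM in Cth+/+ CTRL libraries, with a small gap (-0.73 ± 0.17, adjusted p = 0.036). Iars averaged 49.4 ± 10.4 CPM in Cth-/- CTRL and 77.7 ± 7.43 CPM in Cth+/+ CTRL libraries (-0.62 ± 0.15, adjusted p = 0.039), and Lars 38.6 ± 4.08 CPM in Cth-/- CTRL and 57.8 ± 6.46 CPM in Cth+/+ CTRL libraries (-0.56 ± 0.14, adjusted p = 0.044), both without overlap. Without replicate 1 no member was called (Yars at adjusted p = 0.050). Without replicate 2, 3, 4, 13 or 15 Yars alone was called, and the adjusted p of Cars, Iars and Lars was then 0.050 to 0.14. DESeq2 called 8 cytosolic members lower in BAT, adding Aars, Farsa, Farsb and Tars, the fit with the library set as a term called 7, and the fit within set A 12. Of the mitochondrial set 3 had an unadjusted p under 0.05 (2660 of 14528 tested genes), DESeq2 called 0 and the fit within set A 1, lower. In EFAT and SFAT 0 members were called by edgeR and 0 by DESeq2 (0.0464 and 0.103% of all tested genes called by edgeR). An unadjusted p under 0.05 was found for 0 members in EFAT and 2 in SFAT, beside 1070 of 17248 and 1825 of 16555 tested genes. Within set A 3 cytosolic members were lower in SFAT, Farsb (-0.55), Hars (-0.49) and Lars (-0.37).

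**Figure D4:**
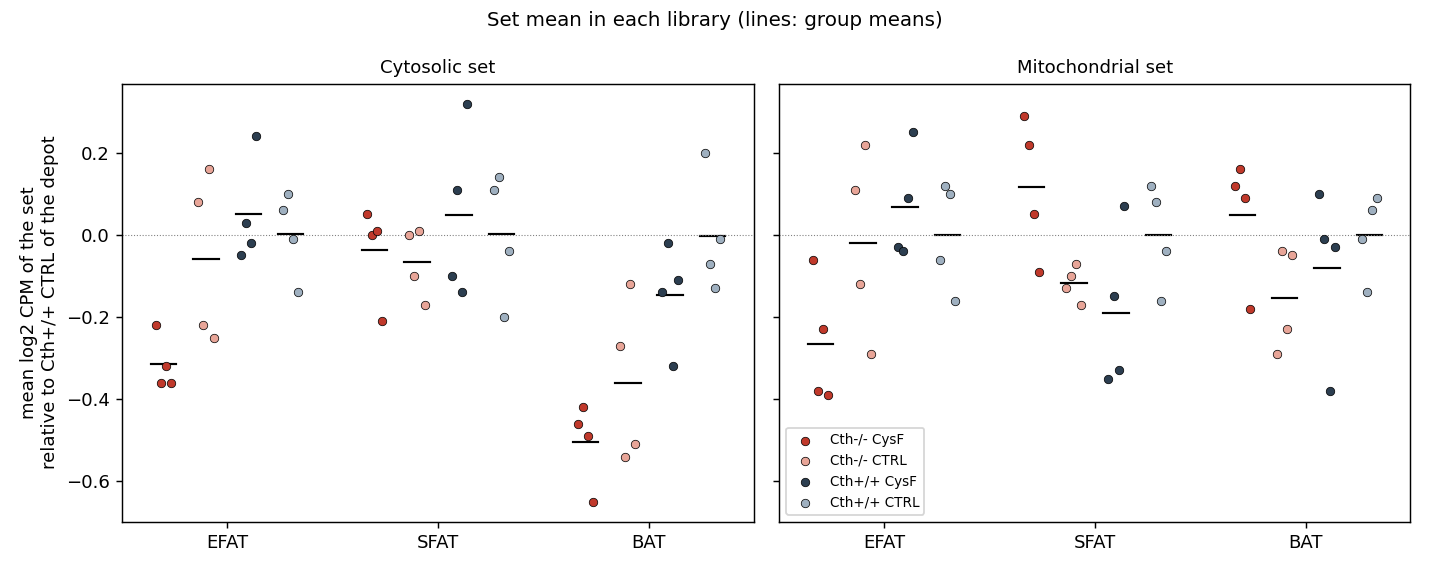
Mean log2 CPM of the cytosolic set and of the mitochondrial set in each library, relative to the mean of Cth+/+ CTRL mice of the same depot, with lines for group means. In BAT the cytosolic points of Cth-/- CysF mice lie between -0.65 and -0.42 and overlap those of Cth-/- CTRL mice, between -0.54 and -0.12. In SFAT the mitochondrial points of Cth-/- CysF mice lie between -0.09 and 0.29, while those of Cth-/- CTRL mice lie between -0.17 and -0.07.

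The separation of the sets within single libraries is a description of the same values. The mitochondrial minus the cytosolic set mean (log2, relative to Cth+/+ CTRL mice of the depot) in SFAT was 0.04 to 0.24 in Cth-/- CysF, -0.13 to 0.00 in Cth-/- CTRL, -0.26 to -0.19 in Cth+/+ CysF and -0.06 to 0.04 in Cth+/+ CTRL libraries. Cth-/- CysF libraries of SFAT were thus at or above every other library of the depot, and Cth+/+ CysF libraries below every other. In BAT it was 0.47 to 0.58 in Cth-/- CysF libraries, against -0.02, 0.50, -0.11 and 0.46 in Cth-/- CTRL libraries 12, 13, 14 and 15. In BAT replicate 13 lay within the range of the cystine-free group, 15 just below it, and 12 and 14 far below it. Replicates 12 and 14 are libraries of set B, as is replicate 20 of the cystine-free group. In EFAT it was -0.03 to 0.16 in Cth-/- CysF and -0.04 to 0.10 in Cth-/- CTRL libraries, which overlapped throughout.

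Differences of the Cth-/- diet response between depots were tested in the fit of all 48 libraries, and these comparisons share each depot's libraries. In EFAT against BAT 2 cytosolic and 5 mitochondrial members were lower and 0 higher (16.2% of all tested genes called, 8.93% lower). The mitochondrial ones were Cars2 (-1.63 ± 0.39, edgeR adjusted p = 0.0041), Sars2 (-0.95 ± 0.23, adjusted p = 0.0046), Aars2 (-0.94 ± 0.22, adjusted p = 0.0034), Yars2 (-0.83 ± 0.29, adjusted p = 0.045) and Lars2 (-0.62 ± 0.17, adjusted p = 0.0093), and the cytosolic ones Gars (-0.70 ± 0.22, adjusted p = 0.027) and Yars (-0.68 ± 0.24, adjusted p = 0.042). Those of Cars2, Sars2 and Aars2 were called in all 14 alternatives run. Gars, Yars and Yars2 were not called without replicate 12, 14, 17 or 18, nor Yars without 16, and Lars2 not without 12, 14 or 17 (adjusted p 0.050 to 0.21). In EFAT against SFAT 1 cytosolic and 4 mitochondrial members were lower and 0 higher (4.38% of all tested genes called, 3.35% lower): Gars (-0.77 ± 0.22, adjusted p = 0.036), Aars2 (-0.92 ± 0.22, adjusted p = 0.014), Sars2 (-0.81 ± 0.23, adjusted p = 0.037), Lars2 (-0.74 ± 0.17, adjusted p = 0.0085) and Fars2 (-0.53 ± 0.16, adjusted p = 0.044). Without replicate 17 none of these was called, and without 12 or 14 only Lars2 was. Gars and Sars2 were also not called without 16 or 20, nor Fars2 without 13, 18 or 20 (adjusted p of the calls lost 0.052 to 0.20). In SFAT against BAT 0 members were called by edgeR and 0 by DESeq2 (2.16% of all tested genes called by edgeR). An unadjusted p under 0.05 was found for 6 members and for 2657 of 18348 tested genes. Cars there differed by 0.58 ± 0.18 (adjusted p = 0.075), and by 0.49 ± 0.18 in EFAT against BAT (adjusted p = 0.052), while DESeq2 called the difference in EFAT against BAT (0.50, adjusted p = 0.036). The call of a difference between EFAT and BAT in the response of Cars thus depended on the tool and the model.

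Known divisions of the cytosolic set were compared by their counts. The 8 members held in the multisynthetase complex (Dars, Eprs, Iars, Kars, Lars, Mars, Qars and Rars) had a median log2 fold change with the diet in Cth-/- mice of -0.01 in EFAT with 1 lower, 0.16 in SFAT with 0 called and -0.13 in BAT with 0 called. The 12 members outside it had medians of -0.22 in EFAT with 4 lower, 0.01 in SFAT with 0 called and -0.25 in BAT with 1 lower. Of all tested genes 14.3% were lower in EFAT and 10.2% in BAT. The 5 genes whose promoter windows are printed above had medians of -0.43 in EFAT, with Aars, Gars and Yars lower, 0.05 in SFAT and -0.13 in BAT with 0 called. The 8 other cytosolic genes with a promoter in the table had medians of -0.01, 0.17 and -0.07, and 0 called in each depot. For the genotype on the cystine-free diet the 5 genes had medians of -0.57 in EFAT with 3 lower, -0.12 in SFAT with 1 lower and -0.51 in BAT with 4 lower, where 19.6%, 19.4% and 17.1% of all tested genes were lower. The 8 others had -0.07 in EFAT with 2 lower, 0.08 in SFAT with 1 higher (18.1% of all tested genes) and -0.13 in BAT with 1 lower. The genotype on the control diet in BAT gave -0.56 with 2 lower (Iars and Yars; 0.805% of all tested genes) for the 5 genes and -0.21 with 0 called for the 8 others. The cytosolic genes without a promoter in the table are in neither group and held further calls, each lower. For the diet these were Lars and Wars in EFAT and Cars in BAT. For the genotype on the cystine-free diet they were Cars, Hars, Lars, Rars and Wars in EFAT and Cars and Rars in SFAT. In BAT they were Cars, Hars, Lars and Nars on that diet, and Cars and Lars on the control diet. All these values come from the comparisons above, and no difference between the divisions was tested.

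Other genes of tRNA charging and translation were read from lists, for the diet in Cth-/- mice. The 3 scaffold genes of the multisynthetase complex had median log2 fold changes of -0.17 in EFAT, 0.07 in SFAT and -0.06 in BAT, none past the test. Tarsl2, a paralog of the threonine enzyme that the rule leaves out, had 16.1 ± 3.26 CPM in EFAT of Cth-/- CysF mice and 8.74 ± 1.66 CPM in Cth-/- CTRL mice (SD, n = 4; log2 fold change 0.99 ± 0.17, edgeR adjusted p = 0.0010). In SFAT Tarsl2 had 17.9 ± 2.58 CPM in Cth-/- CysF and 8.12 ± 0.278 CPM in Cth-/- CTRL mice (1.17 ± 0.13, adjusted p = 2.4e-05). Qrsl1, a subunit of the amidotransferase that forms mitochondrial glutaminyl-tRNA in place of a direct synthetase, fell in EFAT (-0.54 ± 0.17, adjusted p = 0.030) and rose in BAT (0.60 ± 0.19, adjusted p = 0.037). It was the member of a list of 4 genes for mitochondrial glutamine and initiator tRNA that passed in these depots.

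Of 10 mitochondrial translation factors 4 rose and 0 fell in SFAT (median 0.27; 11.8% of all tested genes higher), 3 rose and 0 fell in BAT (median 0.20; 7.81% higher), and 1 rose and 1 fell in EFAT (median -0.12; 28.8% called). The elongation factor genes Gfm1 and Tufm had log2 fold changes of 0.71 and 0.53 in SFAT and 0.37 and 0.44 in BAT, and Gfm2, for ribosome recycling, 0.38 and 0.30. Guf1, for a GTPase of mitochondrial translation, rose in SFAT (0.32) and EFAT (0.23), and Tsfm, the exchange factor of Tufm, fell in EFAT (-1.0 ± 0.28, adjusted p = 0.017). Of 6 cytosolic elongation factors 3 rose in EFAT (Eef2 0.36, Eef1b2 0.32 and Eef1d 0.29; median 0.29; 14.5% of all tested genes higher), and the medians were 0.10 in SFAT and -0.03 in BAT, where none passed. Of 14 genes of tRNA transcription and maturation Gtf3c2, a subunit of TFIIIC, rose in EFAT (0.38) and SFAT (0.23), and Polr3g, a subunit of RNA polymerase III, fell in BAT (-0.88 ± 0.16).

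Regulators and targets of the amino acid response outside tRNA charging went both ways in each depot. Atf4 had log2 fold changes of -0.16 ± 0.14 in EFAT, 0.20 ± 0.11 in SFAT and 0.48 ± 0.18 in BAT, none past the test (adjusted p = 0.41, 0.18 and 0.078). Of 13 regulators 5 rose and 3 fell in EFAT, 4 rose and 2 fell in SFAT, and 1 rose and 1 fell in BAT (medians 0.09, 0.30 and 0.18). Over all tested genes 14.5% were higher and 14.3% lower in EFAT, 11.8% and 13.6% in SFAT, and 7.81% and 10.2% in BAT. They included Ppp1r15a, the phosphatase subunit that acts on eIF2, which rose in EFAT (1.02) and SFAT (0.72), and Trib3, a feedback inhibitor of ATF4, which rose in BAT (1.13 ± 0.30, adjusted p = 0.016; 0.32 ± 0.23 in EFAT and 0.73 ± 0.36 in SFAT, not past the test). Of 27 targets 7 rose and 8 fell in EFAT and 7 rose and 3 fell in SFAT, and of the 26 tested in BAT 5 rose and 5 fell (medians 0.06, 0.14 and -0.27), beside 28.8%, 25.4% and 18.0% of all tested genes called in either direction. Pycr1, for proline synthesis, fell in each depot (-1.57 in EFAT, -3.16 in SFAT and -2.52 in BAT), and Chac1, for glutathione breakdown, rose in each (1.40, 1.00 and 1.29). Asns, for asparagine synthesis, had 0.33 ± 0.17 in EFAT (adjusted p = 0.15), 0.73 ± 0.13 in SFAT (adjusted p = 0.0011) and -0.07 ± 0.24 in BAT (adjusted p = 0.87). Ddit3, a stress-induced transcription factor, had -0.55 ± 0.23, 0.00 ± 0.18 and -0.03 ± 0.26, none past the test.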

How the data were processed

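RNA abundance in 48 libraries was read from 1 table of expected counts per gene, as deposited by the authors without scaling. Per the submitters' processing notes FastQC, STAR, Picard, RSEM and the mouse build mm10 were used. Versions, annotation release and strand of counting: not given in the sources used here. In a library 5.31 to 8.16% of the deposited expected counts were not whole, and they were rounded for the tests.

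Genes were tested in R 4.3.3 with limma 3.58.1 and edgeR 4.0.16 (quasi-likelihood F-test). Libraries were scaled by TMM and genes filtered with filterByExpr at a minimum count of 10 and a total of 15. The model was fitted in each depot over its 16 libraries in 4 groups, and for differences between depots over 48 libraries in 12 groups. P-values are two-sided and Benjamini-Hochberg adjusted over all genes tested, and a gene was called at an adjusted p under 0.05. CPM per kb uses merged exons of GENCODE M21 (GRCm38). Set means use log2 CPM with a prior count of 2. The script was tested on simulated SFAT counts of 16332 genes, with 100 changed in Cth-/- CysF at each of 2 sizes. Of these it called 9 of 100 at a log2 change of 0.5 and 58 of 100 at 1. A member that was not called may thus have changed. More genes were called in the data than were changed in the simulation, so these shares need not hold in the data. Precision is limited by 4 libraries per group.

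The members and lists were chosen with earlier results of these data known. Cars, Cars2, Gars and Kars were always named, then the called members with the largest changes (up to 6 of each set for the diet in Cth-/- mice, up to 4 elsewhere), the 3 highest and lowest per length, and Atf4, Asns, Chac1, Ddit3 and Trib3. Some further called members were named after their values were seen. Alternatives were RLE scaling, no filter, DESeq2 1.42.0, a fit of just the 2 groups, leaving out each replicate, the replicate number as a block, the library set as a term or in separate fits and, added after the data were seen, leaving out libraries that stood apart.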

Additional observations from a re-analysis of the deposited data

Results flagged for a closer look

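Differences between groups that passed a test of the difference itself are listed here with their log2 values from edgeR. The response to the cystine-free diet was higher in Cth-/- than in Cth+/+ mice in SFAT for Iars2 (0.82), Nars2 (0.81), Pars2 (0.77), Fars2 (0.74), Aars2 (0.67), Vars2 (0.42) and Hars2 (0.41). In EFAT it was lower for Yars (-0.75).

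The response in Cth-/- mice was lower in EFAT than in BAT for Cars2 (-1.63), Sars2 (-0.95), Aars2 (-0.94), Yars2 (-0.83), Gars (-0.70), Yars (-0.68) and Lars2 (-0.62). It was lower in EFAT than in SFAT for Aars2 (-0.92), Sars2 (-0.81), Gars (-0.77), Lars2 (-0.74) and Fars2 (-0.53). A search for a library far from the other 3 of its group, over the 12 groups for the means of both sets and the levels of Cars and Cars2, found 0 in 48 tests, where chance gives about 1 in 20.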

How the results depend on the processing

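Of 106 single-gene results, 101 kept their direction in every alternative and 23 also kept their call. RLE scaling moved the median of all genes by at most 0.05 (log2). Precision is limited by 4 libraries a group. The cause of the changes below was not tested, except that fits within a library set and without a replicate hold fewer libraries.

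With DESeq2, members called were 5 for the diet in Cth-/- mice in BAT (2 by edgeR), 8 for the genotype on the control diet in BAT (4) and 4 for the interaction in EFAT (1). With no filter on low counts they were 3 for the diet in Cth-/- mice in SFAT (5), 3 for the SFAT interaction (7) and 2 for the EFAT minus SFAT response (5). With only the 2 groups compared they were 1 for the diet in Cth-/- mice in BAT (2), 2 for the genotype on the control diet in BAT (4) and 1 for the diet in Cth-/- mice in EFAT (9).

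With the library set as a term, members called were 7 for the genotype on the control diet in BAT, 1 for the diet in Cth-/- mice (9), 5 for the cystine-free genotype comparison (17) and 0 for the interaction in EFAT, and 1 for SFAT minus BAT (0), 4 for EFAT minus BAT (7) and 2 for EFAT minus SFAT (5) in the response, with 2 for the EFAT minus SFAT level (1). The cytosolic minus mitochondrial median in EFAT was then 0.10 for the diet in Cth+/+ mice (-0.03), 0.08 and -0.34 for the genotype on the control and the cystine-free diet (-0.07 and -0.17) and -0.20 for the interaction (-0.07).

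Within set A, members called were 13 for the genotype on the control diet in BAT, 10 for the diet in Cth-/- mice and 3 for the genotype on the control diet in SFAT (5 and 0), and 0 in EFAT for the interaction, the diet in Cth-/- mice and the genotype under the cystine-free diet. The medians were -0.01 (-0.30), -0.11 (-0.34) and -0.43 (-0.20) in BAT for the diet in Cth-/- mice, the interaction and the genotype on the control diet. They were -0.35 (-0.44), 0.03 (0.09) and -0.56 (-0.47) in SFAT for the interaction and, on the control and the cystine-free diet, for the genotype. In EFAT they were -0.28 (-0.12) and 0.15 (-0.03) for the diet in Cth-/- and Cth+/+ mice, 0.04 (-0.07) and -0.33 (-0.17) for the genotype on the control and the cystine-free diet, and -0.37 (-0.07) for the interaction. Within set B, members called were 0 in BAT for the diet in Cth-/- mice and the genotype on either diet (12 on the cystine-free diet in all libraries), 1 in SFAT for the interaction (7) and 4 for the cystine-free genotype comparison (12), and 0 in EFAT for the diet in Cth-/- mice. The medians were -0.27 in SFAT for the cystine-free genotype comparison and 0.12 in EFAT for the genotype on the control diet. EFAT comparisons with Cth+/+ CysF mice could not be fitted within set B, which has no such library.

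Without the libraries that stood apart, members called were 1 in BAT (2) and 1 in EFAT (9) for the diet in Cth-/- mice, 0 for the EFAT interaction, 3 for EFAT minus BAT (7) and 1 for EFAT minus SFAT (5) in the response. The median for the genotype on the cystine-free diet in SFAT was -0.55.

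Leaving out each replicate gave 1 to 5 members for the diet in Cth-/- mice in BAT, 3 to 6 in SFAT and 1 to 12 in EFAT, and 0 to 6 for the genotype on the control diet in BAT. It gave 4 to 10 for the interaction in SFAT and 0 to 7 in EFAT. The response gave 0 to 1 for SFAT minus BAT, 3 to 10 for EFAT minus BAT and 0 to 6 for EFAT minus SFAT, and the EFAT minus SFAT level 0 to 1. The medians were -0.49 to -0.38 for the SFAT interaction, -0.55 to -0.45 in SFAT and -0.19 to -0.07 in EFAT for the genotype on the cystine-free diet, -0.16 to -0.01 in EFAT for the diet in Cth-/- mice and -0.14 to 0.03 for the EFAT interaction.

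Single genes changed sign for the diet in Cth-/- mice. Gars had -0.22 in BAT and 0.00 in SFAT within set B, and Cars2 -0.23 in SFAT within set B. Kars in SFAT had 0.00 with only the 2 groups compared, -0.16 within set B and -0.01 without replicate 13. In EFAT Kars had -0.01 with DESeq2, RLE scaling or only the 2 groups, -0.07 with no filter, and -0.05 to -0.01 without replicate 13, 16 or 18.

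With the replicate number as a block, members called were 2 for SFAT minus BAT (Cars and Sars, both higher; 0 without the block) and 9 for EFAT minus SFAT (5) in the response, and 4 for the EFAT minus SFAT level (1). For EFAT minus BAT the block added calls of Cars (0.48, edgeR adjusted p = 0.03) and Hars (-0.4, adjusted p = 0.0085) in the response. The numbers were not taken to pair the depots. Deviations of libraries with the same number correlated at -0.11 to 0.27 between EFAT and BAT, -0.07 to 0.49 between EFAT and SFAT and -0.11 to 0.34 between SFAT and BAT, and 5, 9 and 9 of 16 libraries correlated best with their own number. Each was compared with the 4 libraries of the same genotype and diet in the other depot.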

Other observations

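In Cth-/- CTRL mice the libraries numbered 12 and 14 had higher cytosolic set means than those numbered 13 and 15 in each depot, a pattern noticed after the values were seen and not tested. In SFAT and BAT 12 and 14 were of library set B and 13 and 15 of set A, so the pattern and the library set cannot be told apart there, and in EFAT 12, 13 and 14 were of set A. The set means (log2, relative to Cth+/+ CTRL mice) were 0.08 and 0.16 for 12 and 14, with -0.22 and -0.25 for 13 and 15, in EFAT. They were 0.00 and 0.01, with -0.10 and -0.17, in SFAT, and -0.27 and -0.12, with -0.54 and -0.51, in BAT.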
